A study of Arabidopsis thaliana with 12 samples.

Results

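The C/S1 bZIP genes encode a small network of basic leucine zipper transcription factors in Arabidopsis. Its members were matched by locus in the deposited table, and all 9 were found among 22953 genes. The 5 genes of the S1 group are bZIP1 (AT5G49450), bZIP2 (AT2G18160), bZIP11 (AT4G34590), bZIP44 (AT1G75390) and bZIP53 (AT3G62420). The 4 genes of the C group are bZIP9 (AT5G24800), bZIP10 (AT4G02640), bZIP25 (AT3G54620) and bZIP63 (AT5G28770). All 9 passed the filter on low counts, which 18506 genes passed in all.

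RNA was sequenced from the shoots of Columbia-0 seedlings in 4 groups of 3 libraries. tmt2-L-Suc and tmt2-S carry SAIL_124_H03, a homozygous line with T-DNA insertions in the last exon of TMT2, which encodes a tonoplast monosaccharide transporter. tmt2-L-Suc was raised with 1% sucrose in the 1/2 MS media, and tmt2-S without any. WT-Suc and the WT carry the intact gene and were raised with and without the same sucrose. The labels give an age of 7 days for tmt2-S and of 5 days for tmt2-L-Suc, WT-Suc and the WT, so that the age of tmt2-S and its genotype or its lack of sucrose cannot be told apart. The paper counts days after germination, and its figures differ from the labels. It states that tmt2-S grows slower and was therefore collected later, to match the other groups in growth stage. According to the study's methods, both mutant classes are defined by appearance: tmt2-S seedlings lack true leaves, and tmt2-L seedlings are those that develop much like the WT. The RNA-seq methods do not state whether the sequenced seedlings were sorted by class.

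The S1 proteins are small, and they bind DNA mainly as heterodimers with C group proteins. The network is known for low-energy responses: SnRK1, the energy-sensing protein kinase with the catalytic subunits KIN10 and KIN11, acts when sugar is scarce and phosphorylates bZIP63, and the dimers then activate genes of amino acid breakdown. Sugar also acts on the S1 group after transcription, because an upstream open reading frame (uORF) in the S1 mRNAs encodes a peptide that blocks translation of the main reading frame when sucrose is high. RNA levels, as measured here, therefore do not report the amount of S1 protein.

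The DNA-contacting basic region is what the 2 groups have in common, and it is shown here to let the members be compared by sequence. Each line gives 60 coding bases for 20 codons of TAIR10.1, 5′ to 3′ with introns removed, and capitals mark the codons of the invariant asparagine and arginine of the bZIP basic region.
bZIP1: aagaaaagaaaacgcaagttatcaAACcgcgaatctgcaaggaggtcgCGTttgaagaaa
bZIP2: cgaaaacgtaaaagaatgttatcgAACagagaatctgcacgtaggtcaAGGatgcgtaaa
bZIP11: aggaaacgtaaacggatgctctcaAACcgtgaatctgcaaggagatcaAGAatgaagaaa
bZIP44: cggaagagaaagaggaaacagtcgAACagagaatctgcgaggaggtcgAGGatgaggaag
bZIP53: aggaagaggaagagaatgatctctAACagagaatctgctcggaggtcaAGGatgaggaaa
bZIP9: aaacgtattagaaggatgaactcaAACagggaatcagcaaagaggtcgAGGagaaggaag
bZIP10: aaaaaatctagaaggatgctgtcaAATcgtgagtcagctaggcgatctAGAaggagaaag
bZIP25: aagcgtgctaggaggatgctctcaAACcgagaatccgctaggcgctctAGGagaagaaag
bZIP63: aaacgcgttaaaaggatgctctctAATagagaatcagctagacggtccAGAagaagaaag
By codons translated from these stretches, members of the S1 group shared 15 to 19 of 20 residues with each other and members of the C group shared 16 to 18. Pairs of 1 S1 and 1 C member shared 12 to 16. bZIP2 and bZIP11 differed at 1 of the 20 residues, as did bZIP2 and bZIP53, although only 44 and 47 of the 60 bases were identical. The stretch of bZIP1 lies at chr5:20052190-20052249 on the plus strand and is uninterrupted, whereas an intron splits it in all 4 C genes.

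The gene models separate the groups further. In the longest annotated coding form, each S1 gene has 1 coding exon and a protein of 145 to 173 residues. Each C gene has 6 or 7 coding exons and a protein of 277 to 417 residues. The stretches above were read from the same forms. Further forms are annotated for bZIP44 (2 in all), bZIP10 (4), bZIP25 (3) and bZIP63 (4). TAIR10.1 annotates 1 uORF in each of the 5 S1 genes and 0 in the C genes. The uORFs of bZIP2, bZIP11 and bZIP44 have 42, 43 and 42 codons, and those of bZIP1 and bZIP53 have 26 and 29. That of bZIP1 lies at chr5:20052057-20052134 (plus strand).

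Before the results, 2 properties of the libraries need to be stated. WT-Suc replicate 2 contained RNA of seed storage genes, with a sum of 315 FPKM over SESA1, SESA2, CRC and HSD1, against 0.45 to 1.88 FPKM in the other 11 libraries, so results with WT-Suc are also given without it. TMT2 itself was at 24.8, 10.8 and 15.97 FPKM in tmt2-L-Suc, 21.8, 25.4 and 23.2 FPKM in tmt2-S, 11.4, 7.33 and 8.61 FPKM in WT-Suc and 9.36, 7.83 and 7.04 FPKM in the WT. It was thus higher in tmt2-S than in the WT (log2 fold change (log2FC) 1.48, SE 0.24, adjusted p = 0.000347, edgeR), and since the insertions lie in the last exon, the count of the whole gene does not check the mutation. The 4 shoot markers RBCS1A, LHCB1.1, LHCB2.1 and CA1 summed to 54590 to 61480 FPKM in tmt2-L-Suc shoots, 36810 to 57820 in tmt2-S, 51770 to 65340 in WT-Suc and 52310 to 63260 in the WT. Of the 3 root markers, EXPA7 and COBL9 were at most 0.39 FPKM in every library, and PYK10 lay between 289 and 954 FPKM. PYK10 fell in tmt2-S against the WT (log2FC -1.01, adjusted p = 0.000303) and rose in tmt2-L-Suc against tmt2-S (log2FC 1.30, adjusted p = 3.66e-05) and against WT-Suc (log2FC 0.62, adjusted p = 0.0172). Of the shoot markers, 1 of 4, CA1, a carbonic anhydrase, fell in tmt2-S against the WT (log2FC -1.20, adjusted p = 9.25e-05), where 22.6% of all genes fell. In tmt2-L-Suc against tmt2-S, 2 of 4 rose, where 25.8% of all genes rose. They were CA1 at 1.11 (adjusted p = 0.000111) and LHCB2.1 at 0.95 (adjusted p = 0.00483). The part of these markers in the results was not tested. Libraries held 20187961 to 21370053 expected counts. Nothing in the labels says that replicates were separate cultures, so p-values measure the spread between these samples only.

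The members were expressed at very different levels. FPKM divides by transcript length, so levels can be compared between genes on this scale. bZIP44 and bZIP11 were lowest in all 4 groups by mean level, at 1.66 to 6.31 and 2.52 to 9.16 FPKM over the 12 libraries. Their lowest expected counts were 35 and 58, compared with 184 or more for each of the other 7 genes. bZIP2 had the highest level of the 9 in every tmt2-L-Suc library and bZIP1 in every tmt2-S library. In WT-Suc the highest was bZIP63 in every library, and in the WT it was bZIP2 or bZIP63. The order of neighbours was often within their spread: in tmt2-L-Suc, the 6 leading genes each overlapped in range with the next in order. In tmt2-S, bZIP1 at 254 ± 35.0 FPKM (SD, n = 3) stood above bZIP63 at 148 ± 14.5 FPKM without overlap.

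**Figure D1:**
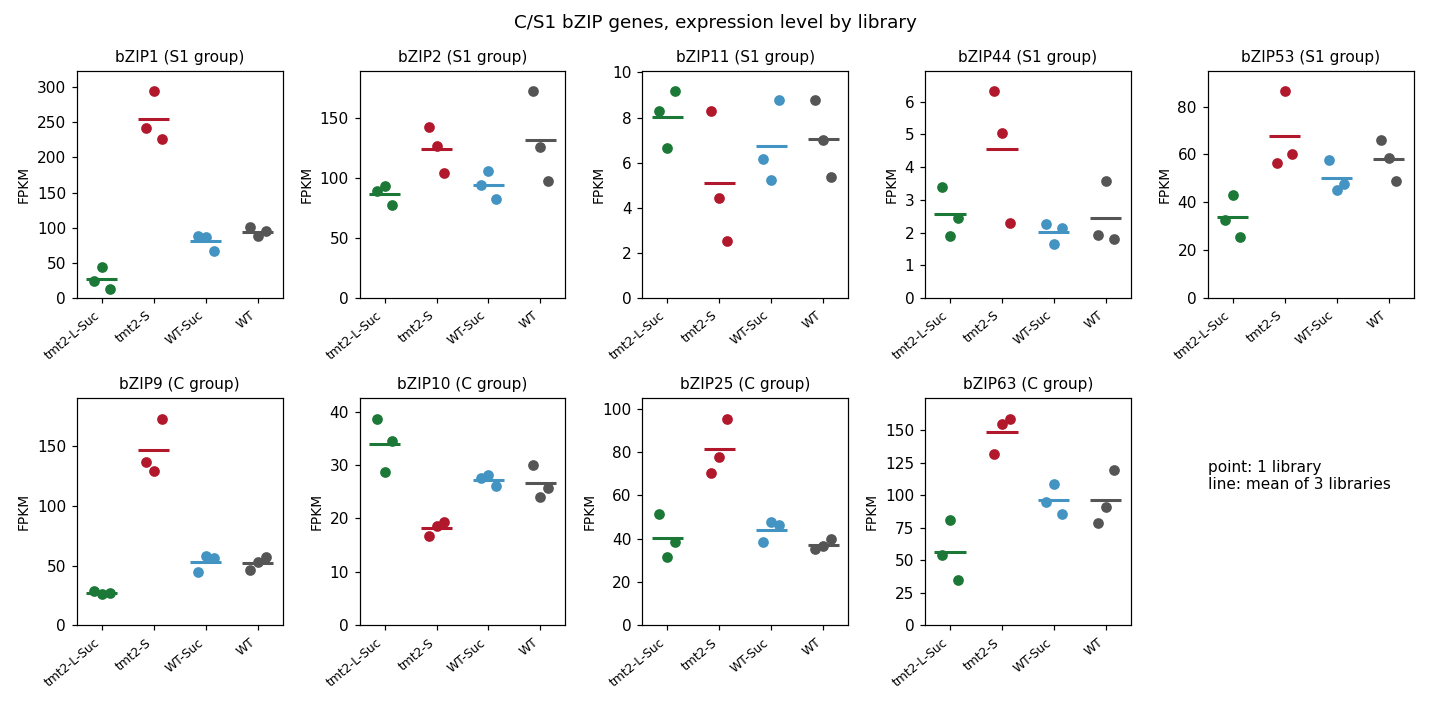
FPKM of the 9 C/S1 bZIP genes by library, with a linear axis from 0 for each gene. Points are libraries and lines are means of 3 libraries; bZIP1 lay between 227 and 294 FPKM in tmt2-S and at or below 101 FPKM in every other library, and bZIP10 was lowest in tmt2-S.

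The first comparison asks how the network differed between arrested mutant seedlings and the WT, both without sucrose. bZIP1, bZIP9 and bZIP25 rose and bZIP10 fell in tmt2-S. These are 4 of 9 members with an adjusted p at or under 0.05 (edgeR quasi-likelihood test, two-sided, Benjamini-Hochberg over 18506 genes), or 44.4%, and 43.3% of all genes passed the same threshold. The members' median log2FC was 0.60, against -0.01 over all genes. Overlap over members and genes was counted on CPM scaled by TMM, the scale of the fit, which can differ from FPKM where values are close. Values did not overlap between the groups for 5 of 9 members and for 51% of all genes.

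bZIP1, an S1 member whose transcript is known as sugar-repressed, was at 242, 294 and 227 FPKM in tmt2-S and 101, 88.1 and 94.8 FPKM in the WT. All tmt2-S libraries were above all WT libraries. The log2FC was 1.38 (SE 0.32, adjusted p = 0.00415), or 2.60-fold.

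bZIP9, a C group partner of the S1 proteins, was at 137, 129 and 173 FPKM in tmt2-S and 46.6, 53.0 and 57.3 FPKM in the WT. The groups were far apart, and the log2FC of 1.45 (SE 0.17, adjusted p = 3.09e-05) was the highest of the 9. Its annotated gene overlaps AT5G24810 on the opposite strand by 35 bases, and the strand setting of the counting is not given in the sources used here.

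bZIP25, known from seed maturation together with bZIP53 and bZIP10, was at 70.5, 77.8 and 95.4 FPKM in tmt2-S and 35.4, 36.6 and 39.7 FPKM in the WT. The ranges were separate, with a log2FC of 1.09 (SE 0.18, adjusted p = 0.000369).

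bZIP10 went the other way. It was at 16.8, 18.6 and 19.3 FPKM in tmt2-S and 30.0, 24.1 and 25.7 FPKM in the WT, and each tmt2-S library was below each WT library. The log2FC was -0.58 (SE 0.14, adjusted p = 0.00461).

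For bZIP63, the member that SnRK1 is known to phosphorylate, the values were 132, 154 and 159 FPKM in tmt2-S and 78.3, 91.0 and 120 FPKM in the WT. They did not overlap, yet the adjusted p was 0.0906 (log2FC 0.60, SE 0.27) and bZIP63 was not counted as changed. It passed at 0.0317 when the model held only these 6 libraries.

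The remaining 4 S1 genes did not pass. bZIP2 had 143, 126 and 104 FPKM in tmt2-S and 172, 126 and 97.6 FPKM in the WT (log2FC -0.14, SE 0.22). bZIP53, the S1 partner in seed maturation, had 56.3, 86.3 and 60.3 FPKM in tmt2-S and 66.1, 58.6 and 49.1 FPKM in the WT (log2FC 0.17, SE 0.23). Both pairs of ranges overlapped.

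bZIP11, the S1 member best known for sucrose control of its translation, had 8.30, 4.44 and 2.52 FPKM in tmt2-S and 8.79, 6.99 and 5.38 FPKM in the WT. The log2FC was -0.52 (SE 0.36, adjusted p = 0.261), and without tmt2-S replicate 1 it was -1.07 with an adjusted p of 0.016. bZIP44, a close relative of bZIP11 and bZIP2, had 6.31, 5.05 and 2.30 FPKM in tmt2-S and 1.92, 3.59 and 1.80 FPKM in the WT (log2FC 0.86, SE 0.36, adjusted p = 0.074). It passed without tmt2-S replicate 3 (adjusted p = 0.0133) or without WT replicate 2 (adjusted p = 0.0238). The call thus turned on 1 library for bZIP11 and on either of 2 for bZIP44.

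**Figure D2:**
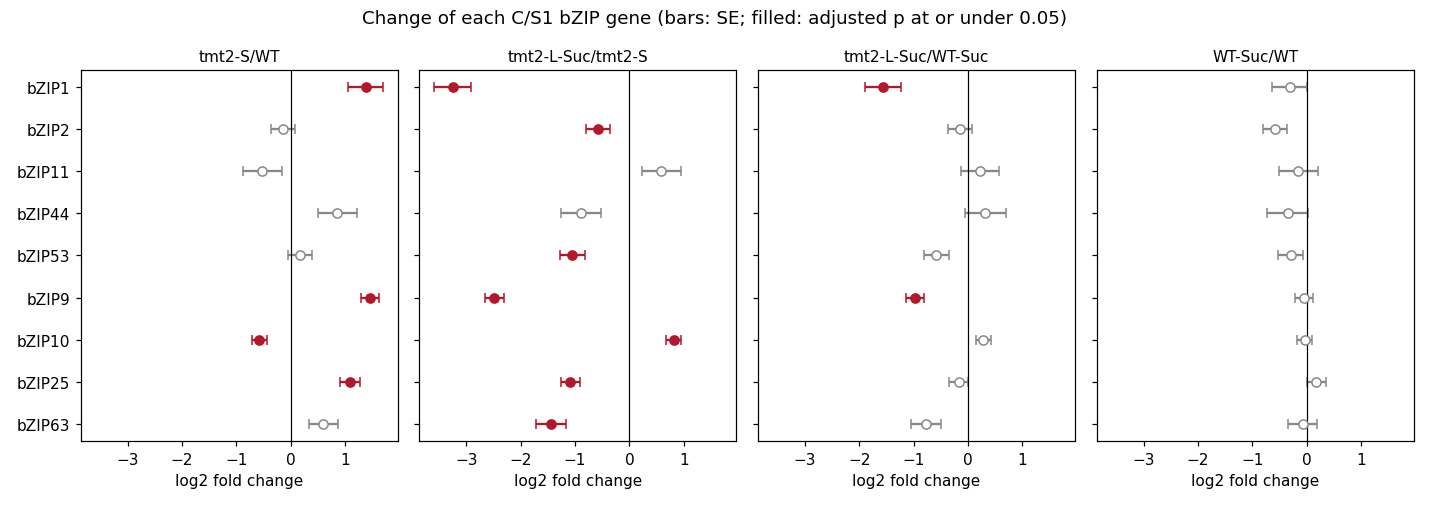
log2FC of each member in 4 comparisons, with SE as bars and filled points for an adjusted p at or under 0.05. bZIP1 and bZIP9 lay at 1.38 and 1.45 in tmt2-S/WT and at -3.25 and -2.48 in tmt2-L-Suc/tmt2-S, and every WT-Suc/WT point was open.

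The second comparison, of fed with unfed mutants, addresses how the network differed when the mutant was fed. It shares the tmt2-S libraries with the first comparison, so both take up the same deviations of these 3 libraries. bZIP1, bZIP2, bZIP53, bZIP9, bZIP25 and bZIP63 fell and bZIP10 rose in tmt2-L-Suc. These are 7 of 9 members, or 77.8%, and 51.5% of all genes passed. The 6 that fell stand against 25.7% of all genes that fell (25.8% rose), and the median log2FC was -1.05 over the members and 0.01 over all genes. For 7 members the values of the groups did not overlap, as for 57.3% of all genes.

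bZIP1 had the largest difference of the 9 in size. It was at 24.2, 43.8 and 13.6 FPKM in tmt2-L-Suc, against 242, 294 and 227 FPKM in tmt2-S. The log2FC was -3.25 (SE 0.35, adjusted p = 1.35e-05), a 9.53-fold lower level with sucrose. The tmt2-L-Suc libraries were also spread widely among themselves, with replicate 2 highest.

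bZIP9 was at 28.3, 26.5 and 27.3 FPKM in tmt2-L-Suc and 137, 129 and 173 FPKM in tmt2-S. Unlike bZIP1, it hardly varied among the fed libraries. The log2FC was -2.48 (SE 0.17, adjusted p = 8.25e-07), or 5.59-fold lower.

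bZIP63 was at 54.1, 80.7 and 34.6 FPKM in tmt2-L-Suc and 132, 154 and 159 FPKM in tmt2-S (log2FC -1.44, SE 0.27, adjusted p = 0.000838). As for bZIP1, replicate 2 of tmt2-L-Suc was highest and replicate 3 lowest. bZIP25 was at 51.2, 31.7 and 38.3 FPKM in tmt2-L-Suc and 70.5, 77.8 and 95.4 FPKM in tmt2-S (log2FC -1.09, SE 0.18, adjusted p = 0.000273). bZIP10 was at 38.7, 28.8 and 34.5 FPKM in tmt2-L-Suc and 16.8, 18.6 and 19.3 FPKM in tmt2-S (log2FC 0.82, SE 0.14, adjusted p = 0.000357). bZIP10 was the only member that rose in this comparison, and no range of these 3 genes overlapped.

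Among the other S1 genes, bZIP53 had 32.4, 43.2 and 25.5 FPKM in tmt2-L-Suc and 56.3, 86.3 and 60.3 FPKM in tmt2-S (log2FC -1.05, SE 0.23, adjusted p = 0.00213). bZIP2 had 88.9, 92.9 and 77.7 FPKM in tmt2-L-Suc and 143, 126 and 104 FPKM in tmt2-S (log2FC -0.58, SE 0.22, adjusted p = 0.0419). The call of bZIP2 was lost without tmt2-L-Suc replicate 1 or 3 or tmt2-S replicate 1 or 2, with adjusted p of 0.1005, 0.146, 0.1195 and 0.0857. bZIP11 and bZIP44 did not pass by edgeR, with log2FC of 0.59 (SE 0.36, adjusted p = 0.182) and -0.89 (SE 0.36, adjusted p = 0.0555), and bZIP44 passed by DESeq2 (log2FC -0.92, adjusted p = 0.0442), which called 8 members. Each passed without 1 library, bZIP11 without tmt2-S replicate 1 (log2FC 1.14, adjusted p = 0.0095) and bZIP44 without tmt2-S replicate 3 (log2FC -1.20, adjusted p = 0.00935). Their tmt2-L-Suc values were 8.30, 6.66 and 9.16 FPKM for bZIP11 and 3.38, 1.89 and 2.44 FPKM for bZIP44. The S1 genes with the longer uORFs, bZIP2, bZIP11 and bZIP44, were thus either marginal or not called in this comparison, whereas bZIP1 and bZIP53 passed at lower p, which is a description of 5 genes and not a test. bZIP11 and bZIP44 also had the lowest counts of the members, and bZIP53 did not pass in tmt2-S/WT or in the interaction.

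In the WT, sucrose gave no call. With WT-Suc against the WT, 0 of 9 members passed by edgeR and 0 by DESeq2, and 1.47% of all genes passed by edgeR. At an unadjusted p under 0.05, 1 member, bZIP2, was lower in WT-Suc (log2FC -0.58, SE 0.22, adjusted p = 0.18). It was at 93.7, 105 and 82.4 FPKM in WT-Suc and 172, 126 and 97.6 FPKM in the WT, so that the ranges overlapped. bZIP1 had 88.4, 86.1 and 66.9 FPKM in WT-Suc and 101, 88.1 and 94.8 FPKM in the WT, which overlapped narrowly. Its log2FC was -0.31 (SE 0.32, adjusted p = 0.62). On TMM-scaled CPM, bZIP1 was the 1 member with separate ranges, as for 24.2% of all genes.

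The intervals state what these 6 libraries could show. The approximate 95% interval of the log2FC, with no adjustment for the number of genes, was -0.94 to 0.31 for bZIP1, -1.01 to -0.15 for bZIP2, -0.74 to 0.15 for bZIP53, -0.38 to 0.26 for bZIP9, -0.31 to 0.23 for bZIP10, -0.17 to 0.52 for bZIP25 and -0.60 to 0.45 for bZIP63. For bZIP11 and bZIP44 it was -0.85 to 0.54 and -1.09 to 0.39. Without WT-Suc replicate 2, 0 members passed as well, with log2FC of -0.39 for bZIP1 and -0.69 for bZIP2, and 0 of all genes were called instead of 272. The response to sucrose can therefore not be called absent for any of the 9 members.

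The response to sucrose differed between genotypes for 5 members. The interaction, the log2FC of sucrose in tmt2 minus that in the WT, was -2.94 for bZIP1 (SE 0.46, adjusted p = 0.000642), -2.43 for bZIP9 (SE 0.23, adjusted p = 4.53e-05), -1.37 for bZIP63 (SE 0.38, adjusted p = 0.0152), -1.27 for bZIP25 (SE 0.25, adjusted p = 0.00234) and 0.86 for bZIP10 (SE 0.19, adjusted p = 0.0051). These are all 4 C group members and 1 of 5 S1 members, and 34.6% of all genes passed, 18.1% with a positive and 16.6% with a negative value. bZIP2 was at -0.00 (SE 0.31, adjusted p = 0.997), which equals log2FC of -0.58 in both genotypes. bZIP53 was at -0.76 (adjusted p = 0.0863) and passed without tmt2-L-Suc replicate 2 (-1.04, adjusted p = 0.0174). bZIP11 was at 0.74 (adjusted p = 0.271) and passed without tmt2-S replicate 1 (1.29, adjusted p = 0.0271). bZIP44 was at -0.54 (adjusted p = 0.446). The interaction contains the difference in age and in seedling class between tmt2-S and the other groups, and their part in it was not tested.

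With sucrose in both genotypes, and at the same labelled age, 2 members differed. tmt2-L-Suc is named for the class of normally developing mutants. Whether its seedlings were sorted by class is not stated, and the part of such a selection was not tested. bZIP1 fell to 24.2, 43.8 and 13.6 FPKM in tmt2-L-Suc, against 88.4, 86.1 and 66.9 FPKM in WT-Suc, and the ranges were separate (log2FC -1.56, SE 0.33, adjusted p = 0.00691, 2.95-fold lower). bZIP9 fell to 28.3, 26.5 and 27.3 FPKM in tmt2-L-Suc, against 44.3, 57.6 and 56.1 FPKM in WT-Suc (log2FC -0.98, SE 0.17, adjusted p = 0.00245). Of all genes, 20.5% passed, close to the share of 22.2% among the members, and 10.4% passed as lower. Without WT-Suc replicate 2 both calls held, at log2FC of -1.48 (adjusted p = 0.0305) and -0.89 (adjusted p = 0.0165).

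bZIP63 and bZIP53 lay between. bZIP63 was at 54.1, 80.7 and 34.6 FPKM in tmt2-L-Suc and 95, 108 and 85.5 FPKM in WT-Suc (log2FC -0.77, SE 0.27, adjusted p = 0.0606). bZIP53 was at 32.4, 43.2 and 25.5 FPKM in tmt2-L-Suc and 57.6, 45.3 and 47.6 FPKM in WT-Suc (log2FC -0.58, SE 0.23, adjusted p = 0.0872). Neither pair of ranges overlapped, as for 5 of 9 members and 41.5% of all genes. Both passed without tmt2-L-Suc replicate 2, at -1.20 (adjusted p = 0.00483) and -0.87 (adjusted p = 0.0201), which brings the count of members to 4. Without WT-Suc replicate 2 neither passed, at -0.66 (adjusted p = 0.198) and -0.63 (adjusted p = 0.157). By DESeq2, bZIP63 passed (log2FC -0.76, adjusted p = 0.0367) and 3 members were called. The approximate 95% interval of the log2FC was -0.57 to 0.29 for bZIP2, -0.47 to 0.91 for bZIP11, -0.42 to 1.05 for bZIP44, 0.01 to 0.55 for bZIP10 (adjusted p = 0.163) and -0.52 to 0.17 for bZIP25.

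Against the WT without sucrose, tmt2-L-Suc had lower bZIP1 (log2FC -1.87, SE 0.33, adjusted p = 0.00439), bZIP9 (log2FC -1.03, SE 0.17, adjusted p = 0.00288) and bZIP53 (log2FC -0.88, SE 0.23, adjusted p = 0.0273). These are 3 of 9 members, all lower, and 11.7% of all genes passed, 6.97% as lower in tmt2-L-Suc. On TMM-scaled CPM, ranges were separate for 5 members and for 37.3% of all genes. Of these, bZIP63 overlapped in FPKM, at 80.7 in tmt2-L-Suc replicate 2 and 78.3 in WT replicate 1. The call of bZIP53 was lost without tmt2-L-Suc replicate 1 or 3 or WT replicate 1 or 2, with adjusted p of 0.105, 0.123, 0.0973 and 0.0735. bZIP2 and bZIP63 were just outside, at log2FC of -0.72 (adjusted p = 0.0522) and -0.84 (adjusted p = 0.0617). They passed by DESeq2, which called 5 members. bZIP1 and bZIP9 in fed tmt2 were thus below the level of both WT groups, in every library.

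Summed over the 9 genes, the network's RNA was 263 to 356 FPKM in tmt2-L-Suc shoots, 812 to 896 FPKM in tmt2-S, 422 to 486 FPKM in WT-Suc and 488 to 540 FPKM in the WT. The 4 ranges did not overlap, but those of WT-Suc and the WT nearly met, at 485.6 FPKM in WT-Suc replicate 2 and 487.6 FPKM in WT replicate 2. WT-Suc replicates 1 and 3 were at 453.6 and 421.7 FPKM. Differences in the sum were not tested. bZIP1 made up 5.16 to 12.3% of the sum in tmt2-L-Suc shoots, 26.9 to 32.8% in tmt2-S, 15.9 to 19.5% in WT-Suc and 18.1 to 19.3% in the WT. The share of bZIP10 ran opposite, at 8.08 to 13.1% in tmt2-L-Suc shoots, 2.07 to 2.29% in tmt2-S, 5.81 to 6.18% in WT-Suc and 4.94 to 5.56% in the WT. By contrast, the sum of the S1 genes over that of the C genes overlapped between the groups, at 0.91 to 1.12 in tmt2-L-Suc shoots, 0.89 to 1.36 in tmt2-S, 0.97 to 1.21 in WT-Suc and 1.03 to 1.84 in the WT. In whole shoots, fewer cells of a type and less RNA per cell cannot be told apart.

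**Figure D3:**
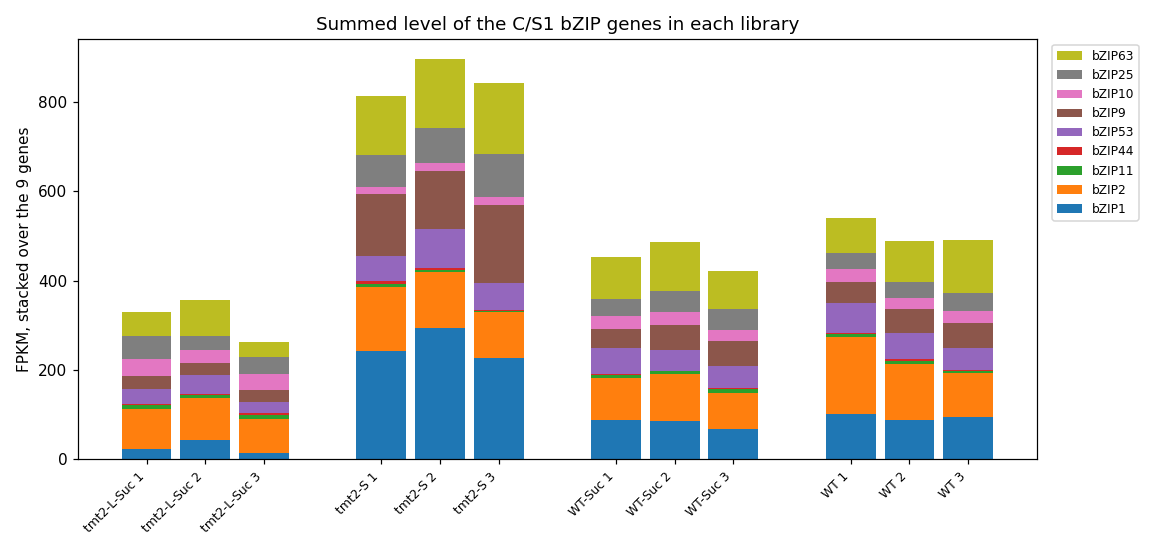
FPKM of the 9 members stacked in each of the 12 libraries. The bars reach 263 to 356 FPKM in tmt2-L-Suc shoots, 812 to 896 in tmt2-S, 422 to 486 in WT-Suc and 488 to 540 in the WT, and bZIP1 (bottom segment) is largest in tmt2-S.

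Pairs of members differed in how they varied together. Over the 12 libraries, log2 CPM of bZIP1 correlated with that of bZIP63 (Pearson's r = 0.96) and bZIP53 (r = 0.91), and after subtraction of the group means r was 0.86 and 0.81. The value of 0.86 pools the 4 groups, which were not alike. In FPKM, bZIP1 and bZIP63 were both lowest in replicate 3 of tmt2-L-Suc and of WT-Suc. In tmt2-S, replicate 3 was lowest for bZIP1 (227) and highest for bZIP63 (159). In the WT, replicate 1 was highest for bZIP1 (101) and lowest for bZIP63 (78.3). bZIP1 and bZIP9 had r = 0.91 over the libraries and r = -0.05 within groups. bZIP9 and bZIP10 had r = -0.90 over the libraries and r = 0.14 within groups. The points share libraries and 4 group levels, so these values are descriptions. The genes most like bZIP1 over the 12 libraries were AT2G36320, annotated as an A20/AN1-like zinc finger protein (r = 0.99), AT1G26800, a RING/U-box protein (r = 0.98), and AT2G32150, a haloacid dehalogenase-like hydrolase (r = 0.98). For bZIP63 they were AT1G54740, a FANTASTIC FOUR-like protein (r = 0.97), PGL1, a 6-phosphogluconolactonase (r = 0.97), and AT4G19160, a transglutaminase family protein (r = 0.97). For bZIP11 they were AT4G19985, an N-acyltransferase family protein (r = 0.94), AT2G41650, an uncharacterized protein (r = 0.94), and AT1G10850, a leucine-rich repeat kinase (r = 0.93).

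Upstream of the network, 4 of 10 genes listed around SnRK1 changed in tmt2-S against the WT, close to the 43.3% of all genes. The list holds SnRK1 subunits, the activating kinases GRIK1 and GRIK2, and TPS1, which is not a kinase. The catalytic subunit KIN11 (log2FC 0.74), the beta subunit KINB1 (1.22) and the gamma-type subunit KING1 (0.92) rose, and TPS1, which makes the SnRK1 inhibitor trehalose-6-phosphate, fell by 1.54 on the log2 scale (adjusted p = 0.000118). By edgeR, the adjusted p was 0.00118 for KIN11, 0.011 for KINB1 and 0.0184 for KING1. On TMM-scaled CPM, the ranges of KINB1 and KING1 overlapped between the groups, and that of KIN11 did not. The other catalytic subunit, KIN10, was at 19.7, 20 and 21.9 FPKM in tmt2-S and 19.1, 20.4 and 21.6 FPKM in the WT (adjusted p = 0.943). Without tmt2-S replicate 3 the count was 2 of 10. In tmt2-L-Suc against tmt2-S, 5 of 10 changed, with 51.5% of all genes: KIN11 (log2FC -1.10), KINB1 (-2.14) and KING1 (-1.72) fell, and TPS1 (1.46) and GRIK2 (0.58), a kinase that activates SnRK1, rose. TPS1 was at 9.24, 12.3 and 11.2 FPKM in tmt2-L-Suc and 3.93, 4.65 and 2.81 FPKM in tmt2-S.

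Downstream, 9 of 10 genes listed as C/S1 targets changed in tmt2-S against the WT, 7 higher and 2 lower, where 20.7% of all genes rose and 22.6% fell. The median log2FC of the list was 2.06. The SnRK1, target and marker lists were chosen with earlier results of these data known. Their counts beside the shares of all genes are therefore descriptions and not tests. Genes of amino acid breakdown led. BCAT2, a branched-chain aminotransferase, was at 109, 162 and 369 FPKM in tmt2-S and 8.63, 5.14 and 15.3 FPKM in the WT (log2FC 4.46, SE 0.67, adjusted p = 0.000226). PRODH1, a proline dehydrogenase, was at 463, 665 and 872 FPKM in tmt2-S and 58.96, 71.2 and 134 FPKM in the WT (log2FC 2.91, SE 0.48, adjusted p = 0.000413). The ranges of both genes were separate. ASN1, an asparagine synthetase, was at 244, 631 and 1155 FPKM in tmt2-S and 113, 143 and 312 FPKM in the WT, which overlapped (log2FC 1.88, SE 0.58, adjusted p = 0.0199). IVD (log2FC 3.44) and MCCA (2.09) of leucine breakdown, TAT7 (2.60), a tyrosine aminotransferase, and ETFQO (2.04), which passes electrons to the respiratory chain, also rose. The 2 that fell belong to auxin biology: IAA3, an Aux/IAA repressor (log2FC -3.14), and GH3.3, an auxin-conjugating enzyme (-1.49). PRODH2 was below 0.5 FPKM in every library and did not pass (log2FC -0.12).

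In tmt2-L-Suc against tmt2-S all 10 targets changed, 8 lower and 2 higher, with 25.7% of all genes lower and 25.8% higher. BCAT2 fell to 2.77, 1.28 and 0.44 FPKM in tmt2-L-Suc, against 109, 162 and 369 FPKM in tmt2-S (log2FC -7.25, SE 0.79, adjusted p = 1.51e-05). IVD (log2FC -4.50), ASN1 (-4.29), PRODH1 (-4.19), MCCA (-3.38), TAT7 (-2.99), PRODH2 (-2.91) and ETFQO (-2.35) fell as well. IAA3 (1.63) and GH3.3 (1.30) rose. PRODH2 was near the floor, with 2, 2 and 1 expected counts in tmt2-L-Suc and 12, 15 and 10 in tmt2-S. With a library left out, 9 to 10 targets changed in this comparison. In WT-Suc against the WT, 0 of 10 passed by edgeR and 1 by DESeq2, with 3 at an unadjusted p under 0.05. Of all genes, just 1.47% passed by edgeR in that comparison. In tmt2-L-Suc against WT-Suc, 7 of 10 fell, compared with 10.4% of all genes, and without tmt2-L-Suc replicate 3 or WT-Suc replicate 2 the count was 3 each, and 4 without tmt2-L-Suc replicate 2.

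Of 7 genes listed as markers induced by KIN10, 5 rose in tmt2-S and 0 fell, where 20.7% of all genes rose and 22.6% fell: SEN1 (log2FC 2.49), BGAL4 (2.25), DIN10 (1.79), TPS10 (1.40) and SEN5 (1.28). SEN1, a dark-inducible gene, was at 957, 2146 and 4527 FPKM in tmt2-S and 297, 291 and 732 FPKM in the WT. AXP (log2FC 0.17, SE 0.67) and TPS8 (0.26, SE 0.39) did not pass. All 7 fell in tmt2-L-Suc against tmt2-S, with log2FC from -4.29 for SEN1 to -2.01 for TPS10, and AXP and TPS8 were at -2.24 and -2.02, where 25.7% of all genes fell. All 7 were also called lower in tmt2-L-Suc than in WT-Suc, as were 10.4% of all genes, but 0 without tmt2-L-Suc replicate 3 and 1 without WT-Suc replicate 2. In WT-Suc against the WT, 0 of 7 passed by edgeR and 0 by DESeq2, with 1 at an unadjusted p under 0.05. Just 1.47% of all genes passed there by edgeR. SEN1 and ASN1 varied several-fold within tmt2-S, with replicate 1 lowest for both, a spread that bZIP1 did not show.

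**Figure D4:**
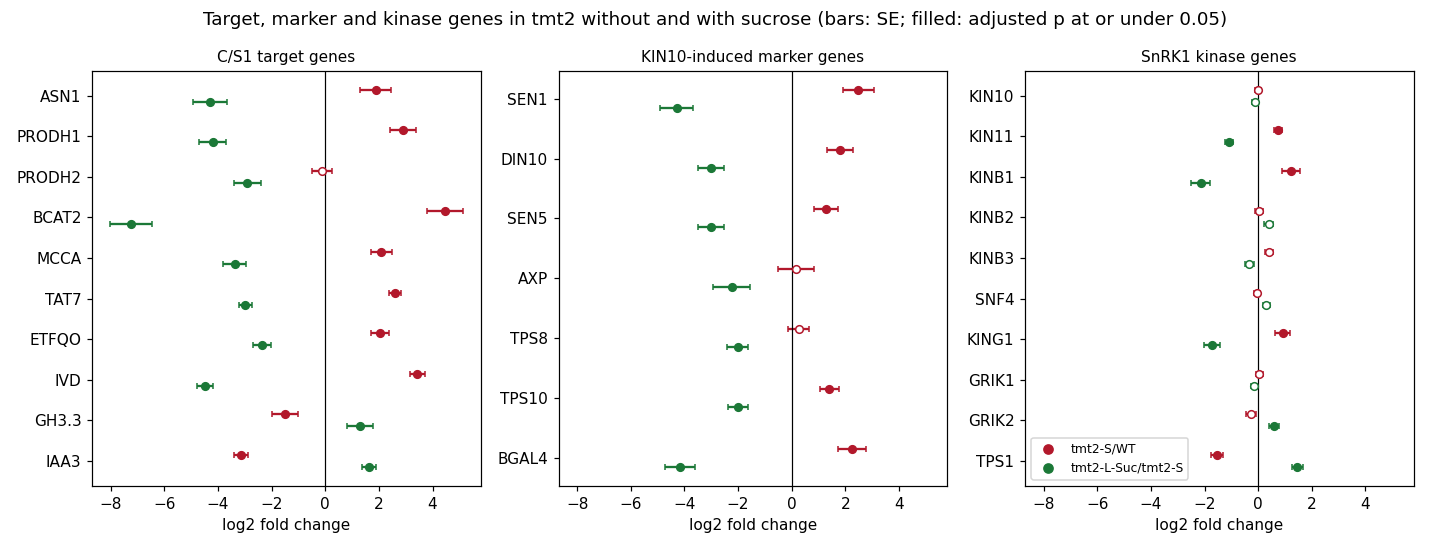
log2FC of the C/S1 target, KIN10-induced marker and SnRK1-related genes (panel title: SnRK1 kinase genes) in tmt2-S/WT (red) and tmt2-L-Suc/tmt2-S (green), with SE as bars and filled points for an adjusted p at or under 0.05. BCAT2 lay at 4.46 and -7.25 and KIN10 at -0.01 and -0.12.

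Seed maturation genes, known to be activated by bZIP53 with bZIP10 or bZIP25, were near 0 outside WT-Suc replicate 2. SESA2 was at 202.9 FPKM in that library and at most 0.64 FPKM in the other 11. bZIP53, bZIP10 and bZIP25 themselves did not stand out there, at 45.3, 28.2 and 47.6 FPKM in WT-Suc replicate 2, against 57.6 and 47.6, 27.6 and 26.1, and 38.7 and 46.2 FPKM in the other 2 WT-Suc libraries.

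C/S1 dimers are known to prefer sites with an ACGT core, such as the G-box, and ACTCAT is known as a site of the PRODH1 promoter. The 250 bases before the annotated transcript start are shown for 3 targets that hold a match and for bZIP10, a member with several matches. They are examples and do not stand for the whole list. Capitals mark ACGT cores, the G-box CACGTG and ACTCAT, searched on both strands, so that ACTCAT on the other strand reads ATGAGT. Each core inside a G-box is also counted as ACGT. Sequences are from TAIR10.1, 5′ to 3′ on the strand of the gene.
ASN1 (chr3:17441432-17441681, minus strand): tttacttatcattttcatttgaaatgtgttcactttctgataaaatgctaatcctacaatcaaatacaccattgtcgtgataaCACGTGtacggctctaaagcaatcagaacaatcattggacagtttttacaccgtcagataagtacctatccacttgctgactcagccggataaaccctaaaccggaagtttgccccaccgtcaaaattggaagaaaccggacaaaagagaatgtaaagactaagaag
PRODH1 (chr3:12451557-12451806, minus strand): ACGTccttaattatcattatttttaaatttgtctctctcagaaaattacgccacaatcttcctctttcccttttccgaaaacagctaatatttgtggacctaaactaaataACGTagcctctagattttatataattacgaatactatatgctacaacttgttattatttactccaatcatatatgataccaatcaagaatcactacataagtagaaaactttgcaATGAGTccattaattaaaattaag
BCAT2 (chr1:3287837-3288086, plus strand): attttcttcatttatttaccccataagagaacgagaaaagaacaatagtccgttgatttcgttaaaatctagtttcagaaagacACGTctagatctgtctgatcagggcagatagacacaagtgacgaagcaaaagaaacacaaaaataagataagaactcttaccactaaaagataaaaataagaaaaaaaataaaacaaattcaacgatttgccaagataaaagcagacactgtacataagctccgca
bZIP10 (chr4:1153695-1153944, plus strand): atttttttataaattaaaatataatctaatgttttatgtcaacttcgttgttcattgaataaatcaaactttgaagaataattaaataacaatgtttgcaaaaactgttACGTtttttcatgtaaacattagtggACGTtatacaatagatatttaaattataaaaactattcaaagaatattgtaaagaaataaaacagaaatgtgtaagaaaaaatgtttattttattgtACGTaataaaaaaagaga
ASN1 held 1 G-box, PRODH1 held 1 ACTCAT at position -24, and BCAT2 held 1 ACGT core without a G-box. The ASN1 window overlaps AT3G47341 on the plus strand. bZIP10 held 3 ACGT cores. Among the targets not shown, IVD, MCCA, TAT7, ETFQO and PRODH2 held no match. GH3.3 and IAA3, which fell in tmt2-S, held 4 ACGT cores and 1 ACTCAT. Over the 10 targets, 4 windows held an ACGT core (40% against 44.1% of 27443 protein-coding genes), 1 a G-box (10% against 6.49%), 0 a C-box GACGTC (against 2.27%) and 2 ACTCAT (20% against 12.3%). Of the 4 C group windows, 2 held an ACGT core and 0 held a G-box, C-box or ACTCAT. These are matches of letters in 1 window, and binding was not measured.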

How the data were processed

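Expression was measured by RNA-seq of shoots in 12 libraries, 3 for each of 4 groups, which were assigned by genotype, treatment and replicate in the labels. The authors cleaned the reads, mapped them with Bowtie2 on TAIR10.1 and quantified genes by RSEM. The deposited expected counts are RSEM's reads per gene without normalization, and 1.35 to 2.13% of those of a library were not whole. The deposited FPKM values were scaled by the authors for transcript length and for mapped fragments and serve for levels only. The deposited TPM values and the authors' averages of all 3 units were not used here. Libraries summed to 20187961 to 21370053 expected counts, and replicates differed by more than counting error.

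Expected counts were rounded and fitted with edgeR 4.0.16 in R 4.3.3: filterByExpr, TMM, 1 quasi-likelihood model with 4 group means (glmQLFit, glmQLFTest), contrasts, and Benjamini-Hochberg adjustment over 18506 genes. Changed means an adjusted p at or under 0.05. SE is |log2FC| divided by the square root of F, and intervals are normal approximations from it. log2 CPM used a prior count of 2. Sequences and gene models were read from the RefSeq annotation of TAIR10.1, and the promoter windows of the S1 group are not reported here. The code was tested on simulated data. Alternatives were median-of-ratios size factors, DESeq2 1.42.0, no filter, at least 10 counts in every library, a model of just the pair of groups, a block for the replicate number, and each library left out.

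The 9 members, the gene lists and the comparisons were chosen with earlier results of these data known. All 9 members were named in every comparison; SnRK1, target, marker and seed genes were named where they changed in tmt2-S/WT or tmt2-L-Suc/tmt2-S, and others were named after their values were seen; the 3 genes most like bZIP1, bZIP11 and bZIP63 were taken by Pearson's r.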

Additional observations from a re-analysis of the deposited data

Results flagged for a closer look

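For 5 members the effect of sucrose in tmt2 differed from that in the WT by the interaction term of the edgeR model. The difference in log2FC was -2.94 for bZIP1 (adjusted p = 0.000642), -2.43 for bZIP9 (adjusted p = 4.53e-05), -1.37 for bZIP63 (adjusted p = 0.0152) and -1.27 for bZIP25 (adjusted p = 0.00234), each lower with sucrose in tmt2. It was 0.86 for bZIP10 (adjusted p = 0.0051), which was higher with sucrose in tmt2. All 5 passed with each of the 12 libraries left out in turn. tmt2-S is the only group of 7 days, so age and the absence of sucrose in tmt2 cannot be told apart here. With 3 libraries a group, single libraries were not screened for distance from their group.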

How the results depend on the processing

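Calls for bZIP1, bZIP9, bZIP25 and bZIP10 kept their direction and their side of the threshold under every alternative in tmt2-S/WT, tmt2-L-Suc/tmt2-S and the interaction, as did bZIP63 in the last 2. Members changed in tmt2-L-Suc/WT numbered 5 by DESeq2 instead of 3. With single libraries left out, the counts of changed members were 4 to 5 in tmt2-S/WT, 6 to 8 in tmt2-L-Suc/tmt2-S, 0 in WT-Suc/WT, 2 to 4 in tmt2-L-Suc/WT-Suc, 2 to 4 in tmt2-L-Suc/WT and 5 to 6 in the interaction. Deviations of same-numbered libraries from their group means correlated between -0.33 and 0.33. Pairs with unlike numbers were not computed, so whether the replicate numbers pair the samples cannot be decided from these values. With the replicate block, 4, 7, 0, 2, 4 and 5 members were changed in the same order of comparisons, and bZIP2 in tmt2-L-Suc/WT passed (log2FC -0.69, adjusted p = 0.0442). Signs turned only where no call was made. The interaction of bZIP2 was 0.0037 without a filter and 0.0437 with at least 10 counts in every library. bZIP25 in tmt2-L-Suc/WT was -0.0022 with median-of-ratios size factors, -0.0022 by DESeq2 and -0.0024 with at least 10 counts. With libraries left out, ranges of log2FC that crossed 0 were, in WT-Suc/WT, -0.10 to 0.093 for bZIP10, -0.42 to 0.070 for bZIP11, -0.55 to 0.063 for bZIP44, -0.18 to 0.066 for bZIP63 and -0.15 to 0.092 for bZIP9. In tmt2-L-Suc/WT they were -0.12 to 0.29 for bZIP11, -0.16 to 0.11 for bZIP25 and -0.24 to 0.38 for bZIP44, in tmt2-S/WT -0.34 to 0.13 for bZIP2 and -0.029 to 0.31 for bZIP53, and in the interaction -0.27 to 0.20 for bZIP2. All genes changed in WT-Suc/WT numbered 272, against 1150 by DESeq2, 153 with the replicate block, 133 with only the groups compared and 0 to 1445 with a library left out; with a library left out they were 1532 to 4763 in tmt2-L-Suc/WT-Suc (3790 with all) and 797 to 2263 in tmt2-L-Suc/WT (2172 with all). The cause was not tested. Low counts limit bZIP11 and bZIP44.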
